A study of Mus musculus with 6 samples.

Results

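The abundant small noncoding RNAs Rn7sk, Rmrp, Rpph1, Rn7s1, Rn7s2, Rny1, Rny3, Terc and Vaultrc5 were followed through RNA immunoprecipitation from mouse left ventricle. These 9 genes were taken by name from a list of small RNAs grouped as products of RNA polymerase III. All 9 were found among the 46072 genes measured in each library. Mammalian Terc, the telomerase RNA, is made by RNA polymerase II and not by RNA polymerase III, so the group name does not hold for it. Except for Terc, these RNAs reached levels between 478 and 65825 FPKM (fragments scaled to transcript length and to the mapped fragments of the library) in all 6 libraries. Terc was at 1.19 FPKM at most.

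Left ventricles were taken from male mice of 10 weeks that were infused through an osmotic minipump. The Sham group is labelled untreated, and the study's methods state that it received saline. Both AngII groups received angiotensin II, a peptide hormone that raises blood pressure and drives cardiac hypertrophy, for 4 h or for 24 h, at a rate that the labels give as 1 mg/kg/min. RNA bound by an antibody to EZH2, the H3K27 methyltransferase of Polycomb repressive complex 2, was compared with RNA recovered by normal IgG from the same treatment group. Each treatment group held 2 mice, and the products of 2 immunoprecipitations were mixed into 1 sequencing library per antibody. There were therefore 6 libraries, with 1 for each combination of treatment and antibody and no replicate. The strain is labelled C57BL/6 for both Sham libraries and both other IgG libraries. It is labelled C57BL/7 for the AngII 4 h anti-EZH2 library and C57BL/8 for the AngII 24 h anti-EZH2 library. The libraries held 3817000 to 7985560 fragments, as implied by the steps of the deposited interval bounds. The ventricular cardiomyocyte markers Myh6, Myl2, Myl3, Tnnt2 and Actc1 lay between 379 and 3934 FPKM in all 6 libraries. Of the atrial markers, Myl7 ranged from 0 to 14.3 FPKM, Myl4 from 0 to 9.50 FPKM, and Sln was listed at 0 in all of them. Fewer cells of a type and less RNA per cell cannot be told apart in such bulk tissue.

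RNA polymerase III makes short transcripts that work in RNA-protein particles of every cell. The 7SK RNA (Rn7sk) holds the elongation kinase P-TEFb in an inactive complex with HEXIM and LARP7. Rpph1 and Rmrp are the RNA subunits of RNase P and RNase MRP, which share most of their proteins and cut precursors of transfer RNA and ribosomal RNA. Rn7s1 and Rn7s2 encode 7SL, the scaffold of the signal recognition particle that brings nascent secretory proteins to the endoplasmic reticulum. The Y RNAs Rny1 and Rny3 bind the Ro60 and La proteins, and Vaultrc5 is the small RNA of the vault particle. These RNAs are plentiful in any lysate, so IgG libraries can hold them through unspecific recovery. FPKM is relative to the fragments of its own library, so the levels below are not amounts recovered.

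The Y RNAs were the shortest members and the ones that were higher with anti-EZH2 than with IgG in 2 of the 3 treatment groups, so their sequences are shown first. Rny1 (ENSMUSG00000065701) lies at chr6:47788069-47788180 on the minus strand of mm10 and has 112 nt. Rny3 (ENSMUSG00000064945) lies nearby at chr6:47781624-47781725 on the plus strand and has 102 nt. Neither overlaps another annotated gene in GENCODE M21. The sequences are the annotated transcripts of GENCODE M21, and capitals mark the outermost helix of the minimum free energy fold, which joins the 5′ and 3′ ends.
Rny1: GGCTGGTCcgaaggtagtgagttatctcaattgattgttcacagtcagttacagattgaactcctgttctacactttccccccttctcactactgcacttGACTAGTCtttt
Rny3: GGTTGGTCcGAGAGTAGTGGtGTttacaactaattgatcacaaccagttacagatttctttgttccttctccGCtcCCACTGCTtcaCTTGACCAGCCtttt
Both transcripts end in a run of 4 T outside the helix, the letters of a polymerase III terminator. The predicted outer helix had 8 base pairs in Rny1 and 21 in Rny3. Pairs were counted inwards from the ends up to the first branch or gap of 4 or more unpaired nt. These numbers depend on that rule and do not give the whole stem. Ro60 binds the stem formed by the ends of Y RNAs. The longest exact run shared by both RNAs had 12 nt. The closest annotated copy of Rny1 with any signal, Gm26168, was 92.7% identical over 110 nt and reached 94.5 FPKM at most, against 13108 to 38928 FPKM for Rny1. No copy of Rny3 was above 0.

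Rn7s1 (ENSMUSG00000099021, chr12:69159295-69159594, plus strand) and Rn7s2 (ENSMUSG00000099250, chr12:69361182-69361481, minus strand) have the same 300 nt, so reads cannot be assigned to one or the other. A further relative, Rn7s6, was listed at 15096 to 28431 FPKM. Together, 14 annotated genes align over at least 60% of the length of Rn7s1, itself included, and Rn7s1 made up 39.9% to 41.0% of their summed FPKM in all 6 libraries. Rn7sk (ENSMUSG00000065037, chr9:78175303-78175633, minus strand, 331 nt) had the same difficulty. Its first 241 nt, at chr9:78175393-78175633, are also the sequence of Gm24447, and capitals mark the 235 nt that are shared exactly with Gm26315.
Rn7sk, nt 1 to 241: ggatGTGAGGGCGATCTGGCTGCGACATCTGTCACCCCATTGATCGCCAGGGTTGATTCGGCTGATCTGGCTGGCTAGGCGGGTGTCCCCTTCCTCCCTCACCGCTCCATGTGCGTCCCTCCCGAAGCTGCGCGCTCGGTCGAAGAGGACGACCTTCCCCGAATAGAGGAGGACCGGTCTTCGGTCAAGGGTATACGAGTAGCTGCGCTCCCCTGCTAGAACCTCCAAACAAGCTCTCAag
Gm26315 was listed at 1236 to 2929 FPKM and Gm24447 at 1145 to 2705 FPKM. Rn7sk made up 54.7% to 57.6% of the summed FPKM of 123 such genes. Neither share moved much from library to library.

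Rmrp (ENSMUSG00000088088, 271 nt) lies at chr4:43492788-43493058 on the minus strand. It is shown because it was the member with the lowest ratio of AngII to Sham in the IgG libraries. Capitals mark the predicted helix of 9 pairs between its ends.
Rmrp: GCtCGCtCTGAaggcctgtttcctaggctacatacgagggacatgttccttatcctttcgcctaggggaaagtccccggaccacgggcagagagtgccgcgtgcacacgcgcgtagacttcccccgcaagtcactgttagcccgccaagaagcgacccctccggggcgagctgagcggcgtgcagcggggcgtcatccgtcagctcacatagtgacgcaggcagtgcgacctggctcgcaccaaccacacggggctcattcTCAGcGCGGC
A lincRNA gene of the same name and strand covers this locus, and Ccdc107 overlaps it on the other strand. The library kit keeps strand, but whether strand was used in counting is not given in the sources used here, so the part of Ccdc107 was not tested. Rpph1 (ENSMUSG00000092837, chr14:50807449-50807767, minus strand, 319 nt) overlaps Ccnb1ip1 on the same strand. None of the 9 annotated relatives of Rpph1 was above 0 in any library.

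The order of the RNAs depended on whether the deposited FPKM or the middle of its deposited interval was read. The steps of the interval bounds are those of the full locus length. For Rny3, the FPKM was 36.1 to 37.7 times the middle of its own interval. The factor was 28.2 to 29.5 for Rny1, 13.5 to 15.3 for Vaultrc5, 3.23 to 3.32 for Rmrp, 2.59 to 2.63 for Rpph1 and 2.49 to 2.51 for Rn7sk. For Rn7s1, of 300 nt, it was 0.985 to 0.989, apart from the members of similar length. How the FPKM was scaled to length is not given in the sources used here.

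As mean FPKM over the 6 libraries, Rn7s1 stood at 53836, followed by Rn7s2, Rny1 at 29042, Rny3 at 26459, Rn7sk at 6114, Vaultrc5 at 4903, Rpph1 at 3087, Rmrp at 877 and Terc at 0.474. Read from the middle of the interval, the means were 54592 for Rn7s1, 2444 for Rn7sk, 1180 for Rpph1, 999 for Rny1, 714 for Rny3, 329 for Vaultrc5 and 268 for Rmrp. On the second reading Rn7sk and Rpph1 lay above the Y RNAs and not below them. Several neighbours in the FPKM order were not separated by the spread over the libraries: Rny1 ranged from 13108 to 38928 FPKM and Rny3 from 11501 to 40630 FPKM, and Rn7sk from 3762 to 7918 FPKM and Vaultrc5 from 1208 to 8562 FPKM. Within 1 gene the factor was nearly constant, so ratios between libraries changed little between both readings.

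**Figure D1:**
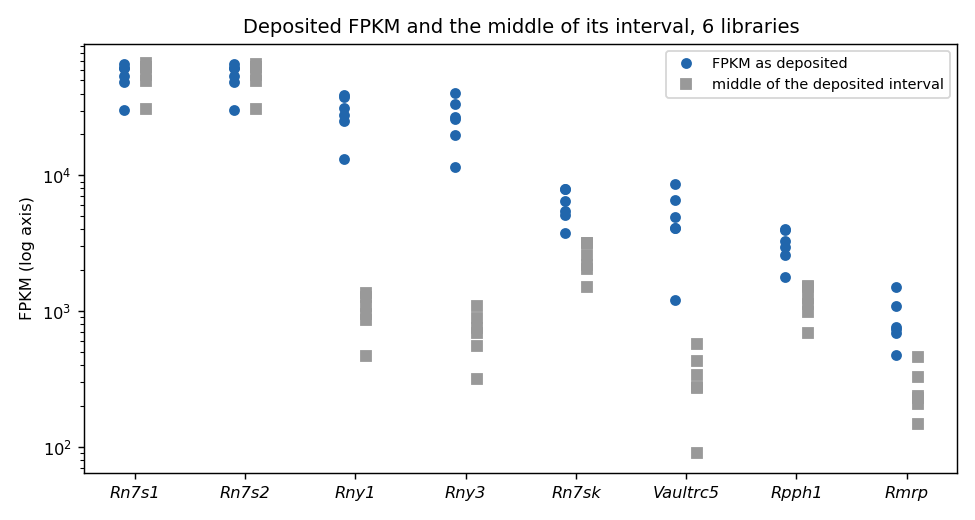
FPKM of 8 small RNAs as deposited (circles) and the middle of the deposited interval (squares), 6 libraries each, log axis. For Rny1 and Rny3 the circles lie 28.2 to 37.7 times above the squares, whereas for Rn7s1 and Rn7s2 both lie at the same height.

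The first comparison was between anti-EZH2 and IgG within each treatment group, which asks whether the FPKM of an RNA was higher with anti-EZH2 than with IgG. The 2 Y RNAs were higher with anti-EZH2 in Sham and AngII 4 h and lower in AngII 24 h. In the separate tables the other RNAs, except Terc, had ratios below 1 in all 3 groups, but in the series table Rpph1 and Rn7s1 were at 1.08 and 1.12 in Sham, and Rn7sk, Rpph1, Rmrp and Rn7s1 at 1.05, 1.08, 1.13 and 1.49 in AngII 4 h. The series values of Rn7s1 rest on far lower levels, given below. All ratios below are from the separate tables unless the series table is named. A change of 2-fold on the log2(FPKM + 1) scale was used as the threshold. With 1 library per combination there was no test, and the intervals given are exact 95% intervals for counting error only, from the fragments implied by the interval bounds.

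**Figure D2:**
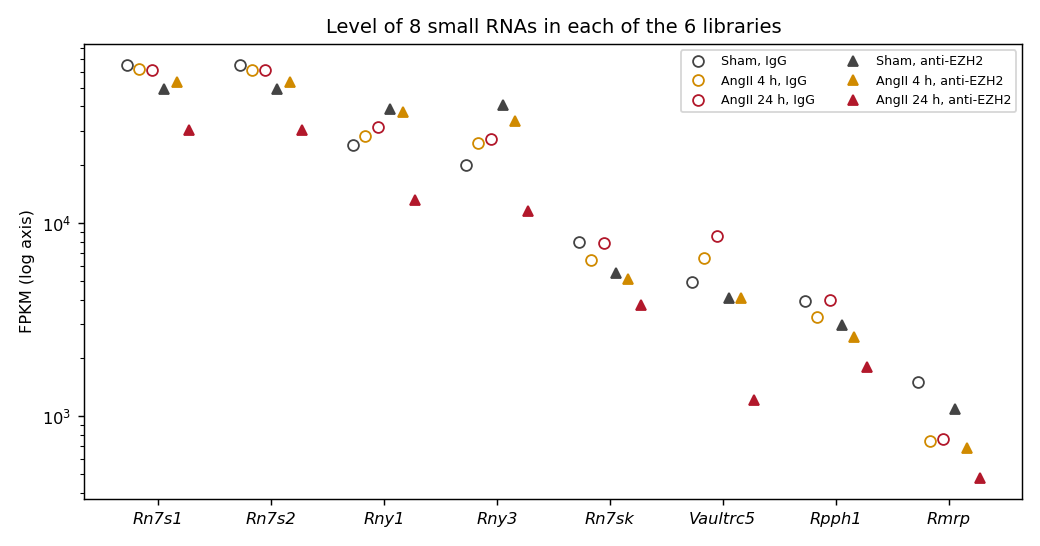
FPKM of 8 small RNAs (log axis) in each of the 6 libraries, with open circles for IgG and filled triangles for anti-EZH2. The AngII 24 h anti-EZH2 library (red triangle) is the lowest library for all 8, and the Y RNAs are highest in the Sham and AngII 4 h anti-EZH2 libraries.

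With IgG, Rny3 was at 19954 FPKM in Sham, at 25945 FPKM after 4 h of AngII and at 27101 FPKM after 24 h. With anti-EZH2 the 3 levels were 40630, 33624 and 11501 FPKM in the same order. The Sham and AngII 4 h anti-EZH2 libraries were thus above all IgG libraries, and the AngII 24 h anti-EZH2 library was below all of them. The ratio of anti-EZH2 to IgG was 2.04 (interval 1.70 to 2.31) in Sham, 1.30 (1.14 to 1.47) in AngII 4 h and 0.424 (0.344 to 0.513) in AngII 24 h.

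Rny1 had the same order of libraries by antibody. From Sham to 24 h it was at 25312, 28007 and 31409 FPKM with IgG, and at 38928, 37487 and 13108 FPKM with anti-EZH2. The ratio was 1.54 (1.39 to 1.76) in Sham, 1.34 (1.20 to 1.47) in AngII 4 h and 0.417 (0.365 to 0.499) in AngII 24 h. In the table that the authors made for the whole series, the ratios of Rny1 were 1.63, 1.51 and 0.491 and those of Rny3 were 1.85, 1.43 and 0.645, so Rny3 in Sham was past 2-fold in the separate tables only.

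Many other short features moved with the Y RNAs, but the member Vaultrc5, of 143 nt, had ratios of 0.821 in Sham and 0.622 in AngII 4 h. Among 612 other features under 150 nt tested in Sham, 57.2% were past 2-fold higher with anti-EZH2 and 9.80% lower, against 8.20% higher and 12.1% lower of the 8422 features over 400 nt. After 24 h of AngII the features under 150 nt were the reverse, with 141 of 598 higher and 359 lower. Of 38 tested Snord genes, C/D box small nucleolar RNAs made by RNA polymerase II, 24 were higher and 3 lower in Sham. Of the Snord genes tested in AngII 24 h, 2 of 29 were higher and 21 lower. The part of transcript length in the ratios of the Y RNAs was not tested.

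Vaultrc5 (ENSMUSG00000065145, 143 nt, chr18:36801866-36802008, plus strand) showed the largest fall among the members. It was at 4953, 6554 and 8562 FPKM with IgG and at 4066, 4077 and 1208 FPKM with anti-EZH2, again from Sham to 24 h. All 3 anti-EZH2 libraries were below all 3 IgG libraries. The ratio was 0.821 (0.674 to 0.992) in Sham, 0.622 (0.537 to 0.738) in AngII 4 h and 0.141 (0.117 to 0.206) in AngII 24 h. The last ratio rests on 61 fragments against 312. In Sham the deposited intervals of both antibodies overlapped. Its log2 difference was -2.82, and 2.1% of all features tested in AngII 24 h had a lower value. Of these 9626 features, however, 8635 were over 400 nt. Among other features under 150 nt, 359 of 598 were past 2-fold lower. The lower quartile was -7.81 for 29 Snord genes, below Vaultrc5, and -2.54 for 35 Snora genes, above it. In the series table the ratio of Vaultrc5 was 0.204.

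Rn7sk was at 7918, 6463 and 7897 FPKM with IgG and at 5500, 5142 and 3762 FPKM with anti-EZH2. Its ratios were 0.695 (0.667 to 0.726), 0.796 (0.765 to 0.828) and 0.476 (0.454 to 0.503). The libraries of the 2 antibodies did not overlap. Summed with its annotated copies, the ratios were 0.717, 0.800 and 0.452.

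In the separate tables, Rpph1 followed Rn7sk closely. It was at 3950, 3266 and 3999 FPKM with IgG and at 2946, 2566 and 1794 FPKM with anti-EZH2, with ratios of 0.746 (0.702 to 0.794), 0.786 (0.738 to 0.829) and 0.449 (0.421 to 0.490). The FPKM of Rpph1 divided by that of Rn7sk was between 0.477 and 0.536 in all 6 libraries. The series table did not keep this. There Rpph1 was at 976 FPKM beside 1756 FPKM for Rn7sk in Sham IgG. In AngII 24 h IgG it was at 3080 FPKM beside 2835 FPKM.

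Rmrp was at 1508, 740 and 766 FPKM with IgG and at 1084, 689 and 478 FPKM with anti-EZH2. Its ratios were 0.719 (0.631 to 0.808), 0.930 (0.789 to 1.06) and 0.624 (0.515 to 0.758). The libraries of the 2 antibodies overlapped, since Sham anti-EZH2 lay above both AngII IgG libraries.

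Rn7s1 was at 65825, 62202 and 61732 FPKM with IgG and at 49082, 53777 and 30401 FPKM with anti-EZH2. The ratios were 0.746, 0.865 and 0.492, and Rn7s2 had 0.998 to 0.999 times the FPKM of Rn7s1 in every library. Summed with all annotated copies, the ratio in AngII 24 h was 0.503 and no longer past 2-fold. Levels of 7SL in the series table could not be used in the same way, because Rn7s1 was listed there at 17.4 to 64.0 FPKM, 785- to 3572-fold below the separate tables, and Rn7s2 had no entry.

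With IgG, Terc was listed at 0, 0.862 and 1.19 FPKM from Sham to 24 h. With anti-EZH2 it was listed at 0.794 FPKM in Sham and at 0 in both AngII groups. The deposited bounds ran from 0 to 3 fragments wherever it was above 0. A difference between libraries was not detectable at this depth, and no fold is given.

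The counts of members past 2-fold are read against those of all features. In Sham, 1 of 8 members tested (Rny3) was higher and 0 were lower, beside 12.0% higher and 12.2% lower of 9433 features. In AngII 4 h, 0 of 8 were past 2-fold in either direction, beside 9.81% higher and 7.92% lower of 9743 features. In AngII 24 h, 0 of 9 were higher and 8 were lower, beside 7.26% higher and 24.0% lower of 9626 features. Of other features of 150 to 400 nt, the class that holds Rn7sk, Rmrp, Rpph1 and 7SL, 45.3% of 384 were lower. Terc is one of the 8 lower members through a single listed value of 1.19 FPKM. Without Terc and with 7SL counted once, 6 of 7 distinct sequences were lower, with Rmrp as the exception. The counting interval lay wholly past 2-fold for Rny1, Rpph1 and Vaultrc5, and reached across it for Rny3 and Rn7sk, as it did for Rny3 in Sham. For Rn7s1 the range that the deposited bounds allow, 0.473 to 0.511, also reached across it. That range is a wider measure than the counting interval. By it Rny1 and Rpph1 also reached across 2-fold, and Vaultrc5 did not. The bounds of Rny1 were 383 to 547 FPKM with anti-EZH2 and 961 to 1214 FPKM with IgG. Those of Rpph1 were 635 to 751 and 1433 to 1620 FPKM.

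The AngII 24 h anti-EZH2 library stood apart as a whole. Its FPKM summed to 790310, against 1713600 to 1928990 in the other libraries. As a share of that sum, Rn7sk was at 0.476% in this library against 0.424% in AngII 24 h IgG. In the same order, Rn7s1 was at 3.85% against 3.31%, Rpph1 at 0.227% against 0.215% and Rmrp at 0.0605% against 0.0411%. Rny1 was at 1.66% against 1.69%, Rny3 at 1.455% against 1.454% and Vaultrc5 at 0.153% against 0.459%. On this scale only Vaultrc5 was past 2-fold lower. The median feature above 1 FPKM in all 6 libraries, members left out, was at 0.703 times its AngII 24 h IgG level. Relative to that median, 1 of 9 members, Vaultrc5, was past 2-fold lower, with a log2 difference of -2.32, and the other members except Terc lay between -0.75 and -0.17. The other classes of small nuclear and nucleolar RNA were also low in this library: 23 of 35 Snora genes and 16 of 22 Rnu and Scarna genes were past 2-fold lower. The median log2 difference was -1.16 for the 7 distinct sequences without Terc, -1.30 for Snora genes, -1.42 for Rnu and Scarna genes and -0.49 for all features. By the series table, 2 of 7 members were past 2-fold lower.

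**Figure D3:**
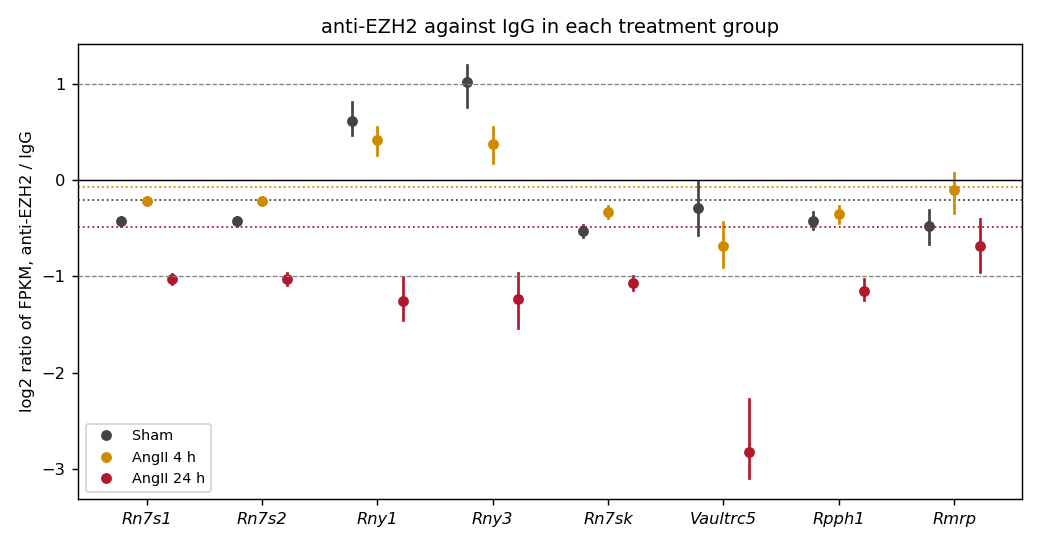
Log2 ratio of anti-EZH2 to IgG for 8 small RNAs in Sham (grey), AngII 4 h (orange) and AngII 24 h (red), with exact 95% counting intervals (for Rn7s1 and Rn7s2, the range that the deposited bounds allow). Dotted lines are the medians of all features, and dashed lines mark 2-fold. The Y RNAs lie above 0 in grey and orange, and all 8 red points lie below the red dotted line.

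Comparing each RNA with Rn7sk of the same library removes the scaling between libraries. Rny1 per Rn7sk was 2.25-fold (1.99 to 2.55) higher with anti-EZH2 than with IgG in Sham and 1.67-fold (1.49 to 1.86) in AngII 4 h. In AngII 24 h the ratio was 0.894 (0.757 to 1.05), an interval that includes 1. For Rny3 the ratios were 2.85 (2.43 to 3.33), 1.62 (1.42 to 1.85) and 0.881 (0.715 to 1.08). Thus, in the separate tables, the Y RNAs were not lower than Rn7sk beyond counting error in AngII 24 h. Vaultrc5 was lower, at 0.327 (0.243 to 0.433). In the series table the AngII 24 h ratio of anti-EZH2 to IgG was 0.713 for Rn7sk. There it was 0.491 for Rny1, 0.645 for Rny3 and 0.204 for Vaultrc5, so Rny1 stood further below Rn7sk. Rmrp per Rn7sk was 1.31-fold (1.07 to 1.60) higher in AngII 24 h, and Rpph1 per Rn7sk had intervals that included 1 in all 3 groups.

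**Figure D4:**
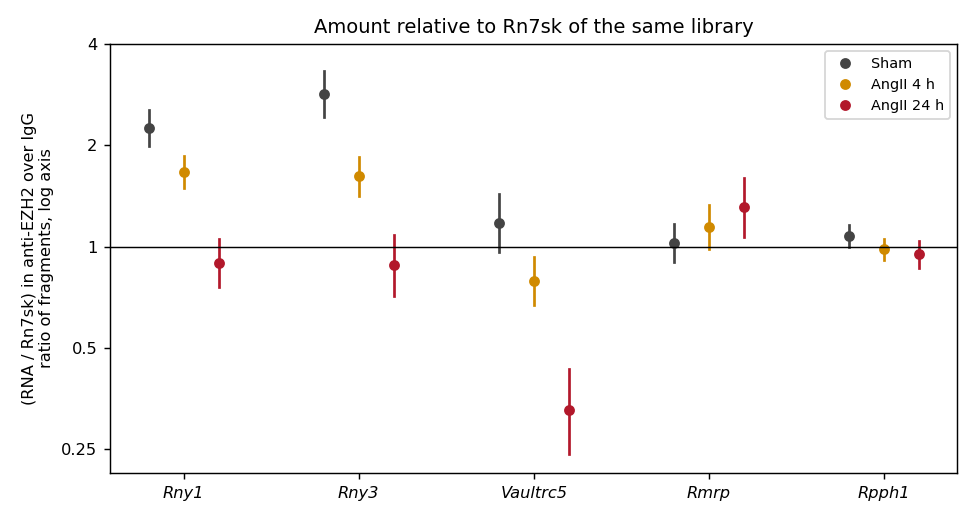
Fragments of 5 small RNAs divided by fragments of Rn7sk, anti-EZH2 over IgG, in each treatment group (log axis), with exact 95% counting intervals. Both Y RNAs are above 1 in Sham and AngII 4 h and near 1 in AngII 24 h, and Vaultrc5 is at 0.327 in AngII 24 h.

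The contrast of anti-EZH2 with IgG was also fitted over the 3 treatment groups with limma, with treatment group as a block and 2 residual degrees of freedom. Of the 8 members tested, 0 had an adjusted p below 0.05 and 0 an unadjusted p below it. Of 8288 features, 2 passed, and 641 had an unadjusted p below it. Both were higher (0.0241% of features) and 0.0% were lower. The 2 features, Gm17428 and Gm23991, were at 0 in all IgG libraries and are named because the count is small. The lowest adjusted p of a member was 0.653, for Vaultrc5, with a log2 difference of -1.26 (SE 0.64) and a lower level in 3 of 3 groups. For Rny3 the difference was 0.05 (SE 0.63, limma adjusted p = 0.975), higher in 2 of 3 groups. The difference was -0.64 (SE 0.42) for Rn7sk and -0.42 (SE 0.35) for Rmrp. A value that misses the threshold does not show that the antibodies recovered these RNAs alike.

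The next comparison was of AngII with Sham within each antibody. The IgG libraries give the background, and each AngII group shares its Sham library with the other. Rmrp was the member that stood lowest in the IgG libraries. Its ratio to Sham was 0.491 (0.431 to 0.570) in AngII 4 h and 0.508 (0.442 to 0.602) in AngII 24 h with IgG. With anti-EZH2 it was 0.635 (0.557 to 0.721) and 0.441 (0.381 to 0.535). Of all features tested in IgG, 8.9% had a lower value than Rmrp in AngII 4 h and 8.7% in AngII 24 h. Rpph1, whose RNA works with most of the same proteins, was at 0.827 (0.778 to 0.879) and 1.01 (0.950 to 1.08) of Sham with IgG. Rpph1 per Rmrp was accordingly 2.62 in Sham IgG, 4.41 in AngII 4 h IgG and 5.22 in AngII 24 h IgG. In the series table the IgG ratios of Rmrp were 0.427 in AngII 4 h and 0.916 in AngII 24 h, so the low level at 24 h was seen in the separate tables only. With anti-EZH2 they were 0.498 and 0.876, so the call at 24 h is lost there as well. Rpph1 with IgG was at 0.708 and 3.16 of Sham in the series table.

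Vaultrc5 was higher in the AngII IgG libraries, with ratios of 1.32 (1.07 to 1.52) in AngII 4 h and 1.73 (1.42 to 2.03) in AngII 24 h, and neither was past 2-fold. In the series table these were 1.02 and 0.759, the second on the other side of 1. With anti-EZH2 the ratios were 1.00 (0.823 to 1.17) and 0.297 (0.239 to 0.431). Rny1 with anti-EZH2 was at 0.963 (0.858 to 1.03) of Sham in AngII 4 h and 0.337 (0.297 to 0.396) in AngII 24 h. For Rny3 these ratios were 0.828 (0.736 to 0.914) and 0.283 (0.242 to 0.348). In the series table the anti-EZH2 ratios at 24 h were 0.167 for Vaultrc5, 0.301 for Rny1 and 0.491 for Rny3. With IgG, Rny1 was at 1.11 (0.974 to 1.26) and 1.24 (1.10 to 1.44) and Rny3 at 1.30 (1.07 to 1.49) and 1.36 (1.15 to 1.63), whereas in the series table Rny1 was at 0.787 and 0.997 and Rny3 at 0.902 and 1.41. The lower Y RNA levels at 24 h were hence in the anti-EZH2 library, whose FPKM sum was the lowest, and not in the IgG library. With IgG, the deposited intervals of both Y RNAs overlapped those of Sham at 4 h and at 24 h. With anti-EZH2 they overlapped at 4 h only. As shares of the summed FPKM with anti-EZH2, Rny1 was at 1.66% in AngII 24 h against 2.16% in Sham. Rny3 was at 1.455% against 2.254% and Vaultrc5 at 0.153% against 0.226% in the same order.

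In the separate tables, Rn7sk, Rn7s1 and Rpph1 moved less. Rn7sk in AngII 24 h was at 0.997 (0.957 to 1.04) of Sham with IgG and at 0.684 (0.652 to 0.722) with anti-EZH2. Rn7s1 was at 0.938 with IgG and 0.619 with anti-EZH2, and Rpph1 at 0.609 (0.571 to 0.663) with anti-EZH2. In the series table the IgG ratios of Rn7sk, Rn7s1 and Rpph1 at 24 h were 1.61, 2.96 and 3.16, the last 2 past 2-fold. The anti-EZH2 ratios there were 1.28, 1.60 and 1.99, on the other side of 1. The direction of Rn7sk and Rpph1 in this comparison thus depends on the table. For Rn7s1 the series ratios rest on 17.4 to 64.0 FPKM and are not a like measure.

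In the IgG libraries, 0 of 8 members were higher and 1 was lower (Rmrp) in AngII 4 h, beside 13.1% higher and 9.23% lower of 9628 features. At 24 h with IgG, 1 of 9 was higher, beside 15.2% of 9825 features, and 0 were lower, beside 8.41%. That one was Terc, at 0 against 1.19 FPKM. With anti-EZH2, 0 of 8 were past 2-fold in AngII 4 h, beside 13.7% higher and 8.53% lower of 9624 features. At 24 h, 0 of 8 were higher and 4 were lower (Rny1, Rny3, Vaultrc5 and Rmrp), beside 9.26% higher and 17.5% lower of 9089 features. By the series table, 3 were lower, without Rmrp. As shares of the summed FPKM of each library, none of the 4 was past 2-fold lower, and Rmrp was at 0.0605% against 0.0601% in Sham. Of features under 150 nt, 70.1% of 673 were past 2-fold lower in that comparison, against 12.2% of those over 400 nt, and the part of length was not tested.

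**Figure D5:**
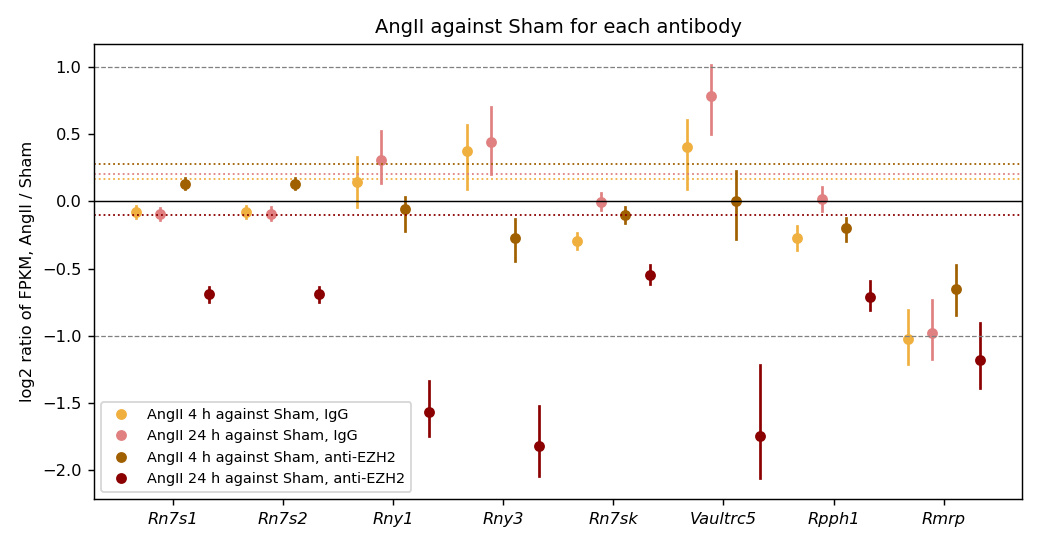
Log2 ratio of AngII to Sham for 8 small RNAs with IgG (light colours) and anti-EZH2 (dark colours), with exact 95% counting intervals (for Rn7s1 and Rn7s2, the range that the deposited bounds allow). Dotted lines are the medians of all features. Rmrp lies below 0 in all 4 comparisons, and the Y RNAs and Vaultrc5 are lowest for anti-EZH2 in AngII 24 h.

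The protein partners of these RNAs were measured through their messenger RNAs, which were rare beside the RNAs themselves. Of 70 genes in 7 lists, 43 could be tested in Sham, with 4 past 2-fold higher with anti-EZH2 and 7 lower. In AngII 4 h, 4 of 45 were higher and 3 lower, and in AngII 24 h, 4 of 50 were higher and 16 lower. On the log2(FPKM + 1) scale used for these counts, no gene of the lists was past 2-fold in the same direction in all 3 groups. The median log2 difference over the lists was -0.23, -0.10 and -0.39, beside -0.20, -0.07 and -0.49 for all features.

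Among 7SK partners the highest mean over all 6 libraries was that of Mepce, the 7SK capping enzyme. It was at 0.826, 0.780 and 2.44 FPKM with IgG and 5.00, 5.62 and 5.34 FPKM with anti-EZH2. All 3 anti-EZH2 libraries were above all 3 IgG libraries, and the log2(FPKM + 1) differences were 1.72, 1.90 and 0.88. As plain ratios of FPKM these were 6.06, 7.21 and 2.19. The anti-EZH2 libraries entered the mean by which Mepce was chosen, so its ratios are not independent of that choice. With IgG, Cdk9 of the same list was above Mepce in each group, at 2.51, 3.22 and 5.20 FPKM. The ratios of Cdk9 were 0.513, 1.81 and 0.330. Of 6 tested genes of this list, 1 was higher and 1 lower in Sham. For RNase P and RNase MRP the most abundant was Rpp21, a shared protein subunit, at 0, 9.50 and 2.23 FPKM with IgG and 4.99, 3.16 and 8.05 FPKM with anti-EZH2, in no constant direction. At 24 h, 3 of 8 tested genes of this list were higher with anti-EZH2, beside 7.26% of all features, and 0 lower, beside 24.0%.

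Srp14, which binds the Alu domain of 7SL, had ratios of 1.11, 1.15 and 1.17. Of 9 signal recognition particle and receptor genes, 5 were past 2-fold lower in AngII 24 h, beside 24.0% of all features. Among these was the receptor gene Srprb, at 24.8 FPKM in AngII 24 h IgG and 0.749 to 1.21 FPKM in the other libraries. These calls, and those of Ssb and Mvp below, were not centred on the median feature, which was at 0.703 times its IgG level. Ssb, which encodes the La protein that binds the 3′ ends of polymerase III transcripts, was at 4.83, 8.62 and 4.97 FPKM with IgG and 3.11, 4.42 and 1.59 FPKM with anti-EZH2. It was lower in all 3 groups and past 2-fold in AngII 24 h. Mvp, the major vault protein, was at 2.45, 2.38 and 2.29 FPKM with IgG and 1.98, 1.57 and 0.555 FPKM with anti-EZH2, and was likewise past 2-fold lower in AngII 24 h. Nop10, a telomerase and small nucleolar particle protein, had ratios of 0.438, 0.774 and 0.975.

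Of the polymerase III list, 1 of 17 tested genes was higher and 4 lower in Sham, 2 of 17 were higher and 0 lower in AngII 4 h, and 1 of 22 was higher and 7 lower in AngII 24 h. The highest mean over all 6 libraries was that of Maf1, the repressor of RNA polymerase III. It was at 6.19, 7.27 and 12.3 FPKM with IgG and 11.7, 20.0 and 16.7 FPKM with anti-EZH2. Its ratios were 1.89, 2.76 and 1.36, with that of AngII 4 h past 2-fold. The anti-EZH2 libraries entered the mean by which Maf1 was chosen. With IgG, Polr1d was at 10.4, 10.2 and 8.81 FPKM, above Maf1 in Sham and AngII 4 h. The ratios of Polr1d were 0.444, 0.511 and 0.629. Within IgG, 6 of 23 genes of this list were past 2-fold higher in AngII 24 h than in Sham, beside 15.2% of all features, and 3 lower, beside 8.41%.

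The genes with the pattern most like the mean of the 8 abundant members were sought among 4838 others above 1 FPKM in all 6 libraries, as Pearson correlation of log2(FPKM + 1) over these 6 libraries. They were C1qtnf9 (0.997), Gm15501 (0.992), Snora78 (0.992), Gm11353 (0.991) and Gm25835 (0.986). Snora78, an H/ACA small nucleolar RNA, was at 1268, 981 and 1210 FPKM with IgG and 926, 500 and 69.6 FPKM with anti-EZH2. Each of the 5 was lowest in the AngII 24 h anti-EZH2 library, and all points share the same 6 libraries and their scaling.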

How the data were processed

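Libraries were prepared with a stranded kit and aligned to mm10 with TopHat2 per the submitters' processing notes. The program and annotation behind the gene tables are not given in the sources used here. The deposited files hold FPKM values that the authors made, as 1 table per library with interval bounds, and 1 table for the whole series. The separate tables were the main source, and tables were compared only within themselves. Values below 0.001 FPKM were set to 0, and 5 genes with a failed estimate were left out.

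Comparisons used log2(FPKM + 1) over features above 1 FPKM in at least 1 of the 2 libraries, with a threshold of 2-fold and no test, since there was 1 library per combination. A fold on this scale understates the change of low genes. Over the 3 treatment groups, limma (version 3.58.1, R 4.3.3) was run on features above 1 FPKM in at least 3 libraries, with a mean trend, treatment group as a block and Benjamini-Hochberg adjustment. It was tested on simulated data with little noise and a large effect that was the same in all groups. That run does not show whether changes like those of the members could be detected. Its p-values measure only the spread between these libraries.

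Interval bounds multiplied by length were whole multiples of a per-library step for 89.6% to 91.0% of 1573 to 1956 bounds of short genes, within 0.02 of a whole number. Fragments are the middle of these bounds, and their exact Clopper-Pearson 95% intervals cover counting error only. Copies were found with blastn 2.17.0 on GENCODE M21 transcripts, and folds were computed with RNAfold 2.7.2.

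The members and lists were chosen with earlier results of these data known. Named partner genes were the most abundant of each list, by mean FPKM over all 6 libraries, anti-EZH2 included. Any gene past 2-fold in the same direction in all 3 groups was also to be named. For most-alike genes, the 5 highest correlations were taken. Alternatives were another pseudocount, none, no filter, a filter at 10 FPKM, a 1.5-fold threshold, centring, the series table, the limma fit without the block and without each treatment group. Summing of copies, and counting distinct sequences, were chosen after seeing the data. The sequence of Rn7s1 is not reported here.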

Additional observations from a re-analysis of the deposited data

Results flagged for a closer look

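The ratio of anti-EZH2 to IgG went in opposite directions between treatment groups for both Y RNAs. For Rny1 the log2 difference was 0.62 in Sham and 0.42 in AngII 4 h, against -1.26 in AngII 24 h. For Rny3 it was 1.03 in Sham and 0.37 in AngII 4 h, against -1.24 in AngII 24 h. With 1 library per combination the difference between groups was not tested.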

How the results depend on the processing

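For single members, the pseudocounts and the filters on low values changed no log2 difference beyond its counting interval. The table of the whole series moved 39 of 49 of them beyond that interval and gave the other sign for 16, none of these past 2-fold in the separate tables. Centring moved 38 of 56 and gave the other sign for 5, and summing with annotated copies moved 2 of 14 and gave the other sign for 1, Rn7sk in AngII 24 h with IgG. The causes were not tested.

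The count of members past the fold threshold changed as follows. With the series table it was 0 for anti-EZH2 against IgG in Sham, 2 in AngII 24 h, 2 for AngII 24 h against Sham with IgG and 1 for AngII 4 h against Sham with anti-EZH2. At 1.5-fold these counts were 2, 9, 3 and 1, with 1 for anti-EZH2 against IgG in AngII 4 h and 7 for AngII 24 h against Sham with anti-EZH2. Centring left 1 for anti-EZH2 against IgG in AngII 24 h. For AngII 24 h against Sham with IgG it kept the count at 1 but replaced Terc, higher, by Rmrp, lower (-1.20). Without a pseudocount, at the 10 FPKM filter, and among distinct sequences without Terc, AngII 24 h against Sham with IgG had 0, since Terc drops out of these by construction.

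The limma fit called 2 features, against 0 without a filter (936 at an unadjusted p under 0.05), 0 with the series table (259 at that level) and 4 without the treatment group block. Leaving out a treatment group gave 0 to 11 calls, with 11 without Sham, and 0 without AngII 4 h (567 unadjusted) or without AngII 24 h (574). No member was called in any of these limma fits. The sign over the groups changed for Rmrp with the series table (0.013) and for Rny1 with the series table (0.089) and with centring (0.20). Without 1 treatment group, Rny1 ranged from -0.42 to 0.52 and Rny3 from -0.43 to 0.70, each positive without AngII 24 h, and negative without Sham and without AngII 4 h (-0.32 for Rny1 and -0.11 for Rny3).

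Over all features, 1728 to 3005 were past 2-fold in the 7 comparisons, against 2893 to 4621 with a pseudocount of 0.1 FPKM, 2490 to 3965 without one, 3520 to 5499 at 1.5-fold, 450 to 893 at the 10 FPKM filter and 514 to 2363 with the series table. The share of higher among these was 23.3% for anti-EZH2 against IgG in AngII 24 h, 58.7% after centring and 51.8% with the series table. In Sham it was 49.5%, against 68.0% and 61.0%. It was 55.3% in AngII 4 h, against 63.5% and 67.1%. For AngII against Sham it was 58.7% at 4 h with IgG (42.0% and 34.5%), 64.4% at 24 h with IgG (45.6% and 83.1%), 61.6% at 4 h with anti-EZH2 (34.1% and 35.9%) and 34.6% at 24 h with anti-EZH2 (37.7% and 78.5%). Depth limited Terc, at 3 fragments or fewer, and Vaultrc5, at 61 fragments in its lowest library.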
